A study of Mus musculus with 8 samples.

Results

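Macrophages treated with the cytokine tumour necrosis factor (TNFa, 10 ng/ml, 4 h) were compared with untreated macrophages in poly(A) RNA-seq, with 1 library on each side. Both libraries came from bone marrow of C57BL/6 mice, grown into macrophages in medium containing L929-conditioned medium, which supplies the growth factor CSF1, and taken on day 7 of differentiation. Every gene with status OK in both libraries belongs to the comparison, which gives 36462 of the 36806 genes in the deposited table. The other stimuli of the study, interleukin 1 beta (IL1b, 10 ng/ml), the lipopeptide MALP2 (1 ng/ml), CpG DNA (100 nM), transforming growth factor beta (TGFb1, 1 ng/ml), IL4 (10 ng/ml) and IFNg (100 ng/ml), the last a type II interferon, were each applied for 4 h in 1 library and serve below to place the TNFa values. How many mice gave the marrow, and whether the cultures shared it, is not given in the sources used here.

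TNF is made by macrophages and also acts on them, through the receptors TNFR1 (gene Tnfrsf1a) and TNFR2 (Tnfrsf1b). TNFR1 gathers the adaptor TRADD, the kinase RIPK1 and ubiquitin ligases, which activate the IKK complex. IKK marks IkB proteins for destruction, so that NF-kB enters the nucleus and switches on chemokines, adhesion molecules, survival genes and its own inhibitors, among them IkBa and A20. A side arm from the same receptor leads through caspase 8 to cell death.

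Values are FPKM, fragments scaled to transcript length and to the library total, with the lower and upper confidence bounds that the authors deposited, given here in parentheses. These bounds describe each library alone, their level is not stated in the tables, and with 1 library a side no difference has a replicate check. Differences are log2 of (TNFa + 1) over (untreated + 1), and folds are on that same FPKM + 1 scale. A gene is called higher or lower below when the difference reaches 2-fold, and its bounds are called apart when the TNFa and untreated intervals do not touch. List members count as measured at 1 FPKM or more in either library. Some reach this only in the library where they are higher, so counts and medians over lists are descriptions. Over all 12825 genes at 1 FPKM or more in either library, 8.92% were higher and 10.4% lower, the shares to read beside each list. Total read counts are not in the tables. The smallest step of FPKM was 1.24 times as large in the TNFa library as in the untreated one, over 127 genes, and this ratio ran from 1.04 to 2.04 over the 7 stimulated libraries. Macrophage markers were present, since 11 of 12 macrophage genes reached 1 FPKM in each library, with Csf1r, the CSF1 receptor, at 1433 FPKM with TNFa against 1466 FPKM untreated. They were not all stable, since 2 of the 11 were higher (Msr1 and Cd14) and 1 lower (Mertk), with a median difference of 0.20. Lyz2 had another status and was not used. Of 13 B and plasma cell markers in the table, 5 reached 1 FPKM in either library, and their summed level over all 13 was 66.2 FPKM with TNFa and 245 FPKM untreated. Of the 5, 3 were lower with bounds apart and the median difference was -1.33. These 3 were Ighm (19.8 FPKM with TNFa against 124 FPKM untreated), Blnk (40.8 FPKM with TNFa against 104 FPKM untreated) and Cd79b (1.67 FPKM with TNFa against 7.82 FPKM untreated). The defining genes Cd79a (0.0576 FPKM with TNFa against 0.0348 FPKM untreated), Ms4a1 (0.0194 FPKM with TNFa against 0.0156 FPKM untreated) and Pax5 (listed at 0 in both) were at or near 0, and the part of such cells in the results was not tested. For 15 neutrophil markers the sums were 294 FPKM with TNFa and 315 FPKM untreated, with 9 of them at 1 FPKM or more with TNFa and 14 untreated and a median difference of -0.45 over those 14. The sums were, for 13 stromal markers, 91.8 FPKM with TNFa and 86.7 FPKM untreated. T and NK cell markers summed to 36.4 FPKM with TNFa and 35.8 FPKM untreated, dendritic cell markers to 365 FPKM with TNFa and 488 FPKM untreated, and mast cell markers to 3.33 FPKM with TNFa and 3 FPKM untreated. A single gene at 484 FPKM made most of the untreated dendritic cell sum. Of 3 measured dendritic cell markers 1 was higher with bounds apart and 0 were lower, with a median difference of 0.76. No erythroid marker reached 1 FPKM in either library. These are bulk libraries, so fewer cells of a type and less RNA per cell cannot be told apart.

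After 4 h of TNFa the library held far more RNA of inflammatory receptors, chemokines, matrix proteases and glucose-handling genes than the untreated one. It held less of several clock and quiescence genes and of the cholesterol exporter gene Abcg1. Against IL1b, MALP2 and CpG the median differences were -0.042, 0.176 and -0.035 for clock genes. For growth arrest and quiescence genes they were -0.123, 0.025 and 0.00027. All stimuli share the untreated library, so an effect of TNFa and a peculiarity of that library cannot be told apart. Of 12825 genes at 1 FPKM or more in either library, 1144 were higher (8.92%) and 1332 were lower (10.4%), 19.3% in either direction. The bounds were apart for 681 of the higher genes (5.31%) and 769 of the lower genes (6%). Large differences leaned the other way, since 287 higher and 237 lower genes reached 4-fold, and 59 higher and 34 lower genes reached 16-fold. The median gene at 1 FPKM or more in both libraries stood at -0.085 on the log2 scale. Centred on that gene, 1309 genes were higher and 1118 lower, so which direction holds more genes depends on the centring. Among the higher genes with bounds apart the median level was 26.9 FPKM with TNFa and 5.84 FPKM untreated, and among the lower ones 4.87 FPKM with TNFa and 20.2 FPKM untreated. Of the higher genes, 223 (19.5%) were under 1 FPKM untreated, and of the lower genes 242 (18.2%) were under 1 FPKM with TNFa. In the authors' deposited table, 821 of the higher and 921 of the lower genes were called significant, including 679 and 766 of those with bounds apart.

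The gene with the highest difference was Gpr84 (ENSMUSG00000063234, mm9 chromosome 15, 103138667 to 103140869), a receptor for medium-chain fatty acids on myeloid cells. It stood at 725 FPKM (282 to 1168) with TNFa, against 3.94 FPKM (1.49 to 6.39) untreated, 147-fold apart. Ptges (ENSMUSG00000050737, mm9 chromosome 2, 30744991 to 30785383), which makes prostaglandin E2 from the product of the cyclooxygenases, was 231 FPKM (141 to 320.4) with TNFa, against 1.06 FPKM (0.46 to 1.67) untreated, 112-fold. Ccl22 (ENSMUSG00000031779, mm9 chromosome 8, 97269490 to 97275599), a chemokine for T cells with the receptor CCR4, was 36.5 FPKM (17.3 to 55.6) with TNFa, against 0.732 FPKM (0.241 to 1.22) untreated, 21.6-fold. All 3 were low untreated, and their bounds were far apart. Among protein-coding genes with bounds apart, Gpr84, Acod1, Ptges, Olr1, Cav1, Clec4e, Slc7a2, Trem1, Il1b, Ch25h, Mmp14, Cxcl3, Mmp13, Tarm1 and Cxcl2 were the 15 with the highest differences, from 25.2-fold to 147-fold. Of these, 4 encode receptors of innate recognition or uptake beside Gpr84 (Olr1, Clec4e, Trem1 and Tarm1), 2 matrix proteases, 3 secreted cytokines or chemokines, and the rest enzymes, an amino acid transporter and a caveolin. Olr1, the receptor for oxidised LDL, was at 61.2 FPKM (35.1 to 87.4) with TNFa, against 0.0341 FPKM (0.00457 to 0.0637) untreated. Cav1, which forms caveolae at the plasma membrane, was at 81.3 FPKM (59.9 to 103) with TNFa, against 0.828 FPKM (0.505 to 1.15) untreated. Tarm1, an activating receptor of myeloid cells, was at 30.6 FPKM with TNFa against 0.245 FPKM untreated.

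TNF itself headed the list of the ligand, its receptors and their adaptors. Tnf was 114 FPKM (65.8 to 163) with TNFa, against 7.12 FPKM (3.22 to 11) untreated, a difference of 3.83. Its relatives Lta (0.307 FPKM with TNFa against 0.0124 FPKM untreated) and Ltb (0.752 FPKM with TNFa against 0.296 FPKM untreated), which encode lymphotoxin subunits, stayed under 1 FPKM in both libraries. The receptors differed from each other. Tnfrsf1a, the receptor with a death domain, was 97 FPKM (45.7 to 148) with TNFa, against 97.8 FPKM (45.6 to 150.1) untreated, nearly equal. Tnfrsf1b, the receptor that binds TRAF2 directly, was 863 FPKM (359.8 to 1366) with TNFa, against 244 FPKM (119.9 to 368) untreated, with overlapping bounds (3.53-fold), and the upper bound untreated just passed the lower bound with TNFa. Adam17, the protease that sheds TNF and its receptors, was 156 FPKM with TNFa against 102 FPKM untreated.

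Most of the machinery that sits on the receptor differed by less than 2-fold. Of 27 measured genes on this list, 4 were higher (Tnf, Tnfrsf1b, Birc3 and Cflar), 1 was lower (Otulin) and the median difference was 0.25, beside -0.096 over all 12825 genes. Of these 5 genes, Tnf and Birc3 had bounds apart. Birc3, the ubiquitin ligase cIAP2, was 103 FPKM (69.2 to 137) with TNFa, against 40.6 FPKM (27.6 to 53.7) untreated, whereas its relative Birc2 was 4.46 FPKM with TNFa against 3.85 FPKM untreated. Cflar, which encodes the caspase 8 inhibitor cFLIP, was 52.7 FPKM (31 to 74.4) with TNFa, against 24 FPKM (16.3 to 31.7) untreated, with overlapping bounds. Ripk1, the kinase that scaffolds the complex, was 24.4 FPKM (15.8 to 32.9) with TNFa, against 48.1 FPKM (32.5 to 63.6) untreated, a difference of -0.95 that misses 2-fold. Otulin, which removes linear ubiquitin chains, was 28.7 FPKM (12.4 to 44.9) with TNFa, against 63.1 FPKM (27.7 to 98.4) untreated, with overlapping bounds. The ligase subunits that build those chains were close to equal, with Rnf31 at 34.9 FPKM with TNFa against 30.8 FPKM untreated, Rbck1 at 51.6 FPKM with TNFa against 62.8 FPKM untreated and Sharpin at 27.4 FPKM with TNFa against 33.2 FPKM untreated. So were the adaptors Tradd (25.8 FPKM with TNFa against 21.2 FPKM untreated) and Fadd (5.1 FPKM with TNFa against 7.15 FPKM untreated), the protease Casp8 (37.8 FPKM with TNFa against 31.3 FPKM untreated), the deubiquitinase Cyld (11.6 FPKM with TNFa against 12.1 FPKM untreated) and the necroptosis genes Ripk3 (14 FPKM with TNFa against 14.6 FPKM untreated) and Mlkl (21.6 FPKM with TNFa against 17.2 FPKM untreated). Traf2, the ubiquitin ligase adaptor of both receptors, was 30.7 FPKM with TNFa against 16.7 FPKM untreated, and Traf5 was 6.17 FPKM with TNFa against 5.36 FPKM untreated. Among kinases and their partners, Map3k7 (TAK1) was 14.8 FPKM with TNFa against 12.3 FPKM untreated, Tab1 9.29 FPKM with TNFa against 11.8 FPKM untreated, Tab2 51.7 FPKM with TNFa against 62 FPKM untreated and Tab3 1.76 FPKM with TNFa against 0.795 FPKM untreated. The IKK subunits were all somewhat above untreated, with Ikbkb at 62.9 FPKM with TNFa against 50.4 FPKM untreated, Chuk at 16 FPKM with TNFa against 8.81 FPKM untreated and Ikbkg at 52.4 FPKM with TNFa against 34.9 FPKM untreated, and the bounds of Chuk and Ikbkg were apart although neither reached 2-fold.

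**Figure D1:**
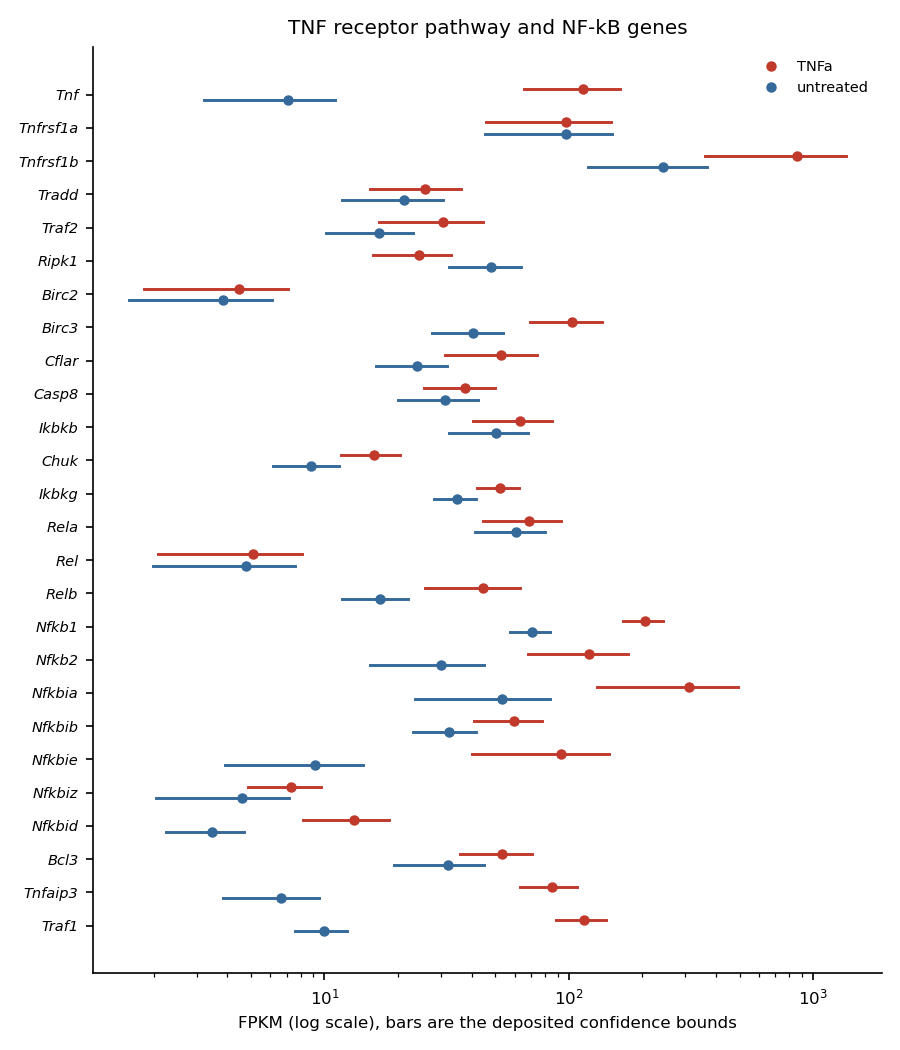
FPKM on a log axis of 26 genes of the TNF receptor pathway and NF-kB in the TNFa library (red, upper point of each pair) and the untreated library (blue, lower point). Points are the deposited values and bars the deposited confidence bounds, 1 library each. Receptor adaptors and kinases mostly overlap, while Tnf, Nfkbia, Nfkbie, Tnfaip3 and Traf1 stand apart.

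The NF-kB subunits and their inhibitors did not all differ alike. Of 11 genes, 6 were higher and 0 lower, with bounds apart for all 6 and a median of 1.35. The inhibitors led. Nfkbie, encoding IkBe, was 92.9 FPKM (40.3 to 146) with TNFa, against 9.14 FPKM (3.92 to 14.4) untreated, 9.26-fold. Nfkbia (ENSMUSG00000021025, mm9 chromosome 12, 56590398 to 56593634), encoding IkBa, was 312 FPKM (130.3 to 494) with TNFa, against 53.5 FPKM (23.5 to 83.5) untreated, 5.74-fold. Nfkbid, a nuclear IkB protein, was 13.2 FPKM (8.19 to 18.3) with TNFa, against 3.47 FPKM (2.24 to 4.7) untreated. The precursor subunits and Relb were also higher, with Nfkb2 at 122 FPKM (68.2 to 175) with TNFa, against 30.1 FPKM (15.4 to 44.8) untreated, Nfkb1 at 206 FPKM (167 to 244) with TNFa, against 70.5 FPKM (57.4 to 83.7) untreated and Relb at 44.5 FPKM (25.9 to 63.1) with TNFa, against 16.9 FPKM (11.8 to 21.9) untreated. The subunits held ready in the cytoplasm were not, since Rela was 68.9 FPKM with TNFa against 60.7 FPKM untreated and Rel was 5.11 FPKM with TNFa against 4.78 FPKM untreated. Nfkbib (59.5 FPKM with TNFa against 32.4 FPKM untreated), Bcl3 (53.4 FPKM with TNFa against 32 FPKM untreated) and Nfkbiz (7.28 FPKM with TNFa against 4.59 FPKM untreated) were above untreated by less than 2-fold.

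Promoter sequences were read for genes of these groups because 6 of 11 NF-kB and IkB genes and the 4 measured neutrophil chemokine genes were higher. RefSeq windows of GRCm38.p6, from 250 bases before to 50 after each start site, were searched on both strands for the NF-kB consensus and for TGANTCA, the AP-1 motif. Shown are the 150 bases before the start of Nfkbia (chr12:55492648-55492797, minus strand) and of the upstream of the start sites listed for Tnfaip3 (chr10:19015411-19015560, minus strand), 5′ to 3′. Capitals mark NF-kB consensus matches and, in Tnfaip3, also TGACTCA.
Nfkbia: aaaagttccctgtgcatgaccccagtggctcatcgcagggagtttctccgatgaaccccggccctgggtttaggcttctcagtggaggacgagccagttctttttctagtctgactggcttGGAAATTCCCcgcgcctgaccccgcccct
Tnfaip3: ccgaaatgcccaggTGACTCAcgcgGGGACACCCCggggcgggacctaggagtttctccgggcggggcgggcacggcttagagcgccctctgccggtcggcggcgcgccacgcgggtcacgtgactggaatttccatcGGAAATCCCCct
In Nfkbia the match begins 29 bases before the start. In Tnfaip3 matches begin 125 and 12 bases before it, and TGACTCA begins 136 bases before it. The consensus was found in 6 of 8 NF-kB and IkB genes with a window (Nfkb2, Rel, Nfkbia, Nfkbie, Bcl3 and Nfkbid). Of these, Rel and Bcl3 were not higher by 2-fold. The consensus was also found in 5 of 20 feedback genes and in 3 of 4 neutrophil chemokine genes. Over all 32851 windows it was found in 4.51%, and over 8323 measured protein-coding genes in 6.26%. Among genes with a window and bounds apart, 50 of 498 higher genes (10.0%) and 37 of 595 lower genes (6.22%) held it. TGANTCA was in 54 higher genes (10.8%) and 43 lower genes (7.23%), beside 6.19% of the measured protein-coding genes and 7.81% of all windows. The windows of Gpr84, Ptges and Ccl22 held neither motif. A match describes letters in a window and is no evidence of binding.

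Many inhibitors of the pathway outside the IkB family were also higher with TNFa. Of 21 feedback genes 14 were higher and 0 lower, with bounds apart for 12 and a median of 1.50. Of these 21, all reached 1 FPKM with TNFa and 18 untreated. Tnfaip3, encoding the ubiquitin-editing enzyme A20, was 85.7 FPKM (63.2 to 108) with TNFa, against 6.66 FPKM (3.85 to 9.46) untreated, 11.3-fold. Traf1, a TRAF adaptor without a ligase domain, was 116 FPKM (88.9 to 142) with TNFa, against 9.99 FPKM (7.57 to 12.4) untreated, 10.6-fold. Tnip3, a partner of A20, was 38.9 FPKM with TNFa against 4.06 FPKM untreated, and Tnip1 had another status in the TNFa library and was not used. Phosphatases that switch off MAP kinases formed a second group, with Dusp5 at 17.8 FPKM (7.73 to 27.8) with TNFa, against 0.654 FPKM (0.216 to 1.09) untreated, Dusp4 at 71.2 FPKM with TNFa against 6.3 FPKM untreated, Dusp1 at 61.5 FPKM with TNFa against 7.89 FPKM untreated and Dusp16 at 15.3 FPKM with TNFa against 4.74 FPKM untreated. Socs3, an inhibitor of cytokine receptors of the gp130 type, was 99.4 FPKM (42 to 157) with TNFa, against 8.93 FPKM (3.87 to 14) untreated, while Socs1 was 3.13 FPKM with TNFa against 0.863 FPKM untreated, with overlapping bounds. RNA-decay factors that limit cytokine messages differed less, with Zfp36 at 90.8 FPKM with TNFa against 51.5 FPKM untreated and Zc3h12a at 18.4 FPKM with TNFa against 11.8 FPKM untreated. Gadd45b (36.3 FPKM with TNFa against 30.4 FPKM untreated) and Tnfaip8 (63.5 FPKM with TNFa against 65.3 FPKM untreated) were close to equal.

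Of 5 genes for chemokines that draw neutrophils, 4 reached 1 FPKM with TNFa and 1 of them, Cxcl2, also untreated. These 4 were higher with bounds apart, with a median of 3.49, but 3 passed the floor through the TNFa library alone, so their count and median are a description. Cxcl3 was 35.3 FPKM (15.2 to 55.4) with TNFa, against 0.256 FPKM (0.059 to 0.452) untreated. Cxcl2 was 75.8 FPKM (36.7 to 115) with TNFa, against 2.05 FPKM (0.749 to 3.34) untreated. Cxcl1 was 7.35 FPKM (2.71 to 12) with TNFa, against 0.675 FPKM (0.204 to 1.15) untreated, the lowest of the 3 with TNFa. All of these act on the receptor CXCR2. Ppbp, another ligand of it, was 4.15 FPKM with TNFa against 0.636 FPKM untreated, and Cxcl5 stayed under 1 FPKM (0.212 FPKM with TNFa against 0.251 FPKM untreated). The promoters of Cxcl1 (chr5:90891095-90891244, plus strand), Cxcl2 (chr5:90903749-90903898, plus strand) and Cxcl3 (chr5:90785951-90786100, plus strand) share a run of letters, shown in capitals in the 150 bases before each start (GRCm38.p6, 5′ to 3′), which spans 2 overlapping consensus matches.
Cxcl1: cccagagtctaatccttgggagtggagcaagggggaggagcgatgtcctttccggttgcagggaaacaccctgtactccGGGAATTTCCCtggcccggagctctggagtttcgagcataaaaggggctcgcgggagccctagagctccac
Cxcl2: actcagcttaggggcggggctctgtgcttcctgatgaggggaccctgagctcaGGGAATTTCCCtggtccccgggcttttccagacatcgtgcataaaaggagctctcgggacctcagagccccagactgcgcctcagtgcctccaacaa
Cxcl3: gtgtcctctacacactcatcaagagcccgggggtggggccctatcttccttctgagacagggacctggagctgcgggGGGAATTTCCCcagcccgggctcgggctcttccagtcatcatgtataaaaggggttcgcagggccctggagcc
The shared GGGAATTTCC begins 71 bases before the start in Cxcl1, 97 in Cxcl2 and 73 in Cxcl3. This run was picked because these 3 promoters share it, so its presence in them was fixed by the choice. It was found in 0.0883% of all windows on either strand. The neighbouring genes arose by duplication, so their promoters are not independent.

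Chemokines for monocytes and lymphocytes followed, with 13 of 17 higher, 0 lower, bounds apart for 13 and a median of 2.08. All 17 reached 1 FPKM with TNFa but only 12 untreated. Some thus passed the floor through the TNFa library alone, and this count and median are a description. Cxcl14 was 73.6 FPKM (33.5 to 114) with TNFa, against 3.28 FPKM (1.24 to 5.32) untreated. Cxcl10, a ligand of CXCR3, was 324 FPKM (169 to 478) with TNFa, against 27 FPKM (13.9 to 40) untreated. The monocyte attractants Ccl7 and Ccl2, both ligands of CCR2, were 62.7 FPKM with TNFa against 4.53 FPKM untreated and 113 FPKM with TNFa against 9.09 FPKM untreated. Cx3cl1, the membrane-bound chemokine for CX3CR1, was 12.7 FPKM with TNFa against 0.365 FPKM untreated, and its receptor gene Cx3cr1 was 111 FPKM with TNFa against 19.6 FPKM untreated. Ccl9 had the highest level of the list, 3325 FPKM (1969 to 4682) with TNFa, against 787 FPKM (495 to 1078) untreated. Ccl17, which shares the receptor of Ccl22, was 2.73 FPKM with TNFa and listed at 0 untreated, so its fold rests on the added 1 FPKM. The macrophage inflammatory proteins Ccl3 (112 FPKM with TNFa against 134 FPKM untreated) and Ccl4 (156 FPKM with TNFa against 112 FPKM untreated) did not differ by 2-fold and were high untreated.

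Among inflammatory cytokine genes the 3 higher ones were of the interleukin 1 family. Of 10 measured genes 3 were higher, 0 were lower and bounds were apart for those 3, with a median of 0.67, and with a pseudocount of 0.1 there were 5 higher genes. All 10 reached 1 FPKM with TNFa but only 7 untreated, so these figures are a description. Il1b was 157 FPKM (67.7 to 246) with TNFa, against 3.94 FPKM (1.48 to 6.4) untreated, 32-fold. Il1rn, which encodes the receptor antagonist that blocks IL1, was 441 FPKM (275 to 608) with TNFa, against 24.5 FPKM (15.5 to 33.4) untreated, 17.4-fold. Il1a was 8.35 FPKM with TNFa against 0.164 FPKM untreated. Il6 stayed under 1 FPKM (0.164 FPKM with TNFa against 0.0332 FPKM untreated), Il12b was 1.18 FPKM with TNFa against 0.106 FPKM untreated, with bounds apart but just under 2-fold on the FPKM + 1 scale, and Il10 was 2.53 FPKM with TNFa against 2.06 FPKM untreated. Il15 was 6.37 FPKM with TNFa against 10.3 FPKM untreated. Nlrp3, the sensor that leads to IL1b processing, was 277 FPKM (195 to 359.5) with TNFa, against 35.5 FPKM (25.8 to 45.2) untreated, while the caspase gene Casp1 was 22.7 FPKM with TNFa against 19.3 FPKM untreated and the pore gene Gsdmd 79.9 FPKM with TNFa against 76.1 FPKM untreated. Nlrp3 was the 1 higher gene of 11 on the inflammasome and cell death list (median 0.22), and 2 were lower, among them the sensor gene Nlrp1b (1.79 FPKM with TNFa against 5.72 FPKM untreated). Over all 12825 genes 8.92% were higher and 10.4% lower, so these counts do not set the list apart.

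Growth factor genes were mostly silent or little different. The colony-stimulating factor genes Csf2 and Csf3 were listed at 0 with TNFa, and Csf1 was 30.1 FPKM with TNFa against 37.4 FPKM untreated. Of 8 measured genes on the list 3 were higher and 1 lower, with a median of 0.76. All 8 reached 1 FPKM with TNFa and 6 untreated. Pdgfb, a growth factor for mesenchymal cells, was 110.0 FPKM (46.9 to 173) with TNFa, against 6.26 FPKM (2.66 to 9.86) untreated, 15.3-fold, and Pdgfa was 58.6 FPKM with TNFa against 18.1 FPKM untreated. Inhba, the activin subunit, was 2.71 FPKM with TNFa against 0.495 FPKM untreated. Gdf15, a stress-responsive member of the TGF beta family, was lower at 2 FPKM (0.669 to 3.32) with TNFa, against 9.22 FPKM (3.8 to 14.6) untreated.

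Genes of prostaglandins and leukotrienes differed in both directions. Of 13 measured genes 4 were higher, 5 were lower and bounds were apart for 4 in each direction, with a median of -0.71. The higher ones were Ptges, Ptgs2, Pla2g4a and Ptges3. Ptgs2, the inducible cyclooxygenase COX2, was 5.87 FPKM (2.51 to 9.24) with TNFa, against 0.667 FPKM (0.231 to 1.1) untreated, and Pla2g4a, which releases arachidonic acid, was 16.3 FPKM (8.1 to 24.5) with TNFa, against 5.07 FPKM (2.59 to 7.55) untreated. Ptges3 was 41.2 FPKM with TNFa against 16.1 FPKM untreated, and Ptges2, a further E synthase, was 15.3 FPKM with TNFa against 10.6 FPKM untreated. The lower ones were Hpgd, Ptgs1, Hpgds, Alox5 and Alox5ap. Hpgd, which inactivates prostaglandin E2, was 1.54 FPKM (0.514 to 2.56) with TNFa, against 32 FPKM (14 to 49.9) untreated, 13-fold lower. Ptgs1, the constitutive cyclooxygenase, was 2 FPKM (0.829 to 3.16) with TNFa, against 9.02 FPKM (4.91 to 13.1) untreated, and Hpgds, the prostaglandin D synthase, was 11.4 FPKM (6.07 to 16.8) with TNFa, against 32.5 FPKM (18.6 to 46.3) untreated. In the leukotriene branch Alox5 was 1.09 FPKM with TNFa against 3.57 FPKM untreated and its activator Alox5ap 2415 FPKM with TNFa against 5003 FPKM untreated, with overlapping bounds.

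Receptors for lectins, adenosine and formyl peptides were higher in 11 of 21 genes and lower in 3, with bounds apart for 10 and 2 and a median of 1.38. Since all 21 reached 1 FPKM with TNFa but only 16 untreated, these figures are a description. Clec4e, the mycobacterial glycolipid receptor Mincle, was 979.9 FPKM (337 to 1623) with TNFa, against 22.6 FPKM (9.91 to 35.2) untreated, and its partner Clec4d was 597 FPKM with TNFa against 229 FPKM untreated, with overlapping bounds. Trem1, which amplifies innate signals, was 39.8 FPKM (23 to 56.5) with TNFa, against 0.179 FPKM (0.0636 to 0.294) untreated, whereas Trem2, a lipid receptor of resident macrophages, was 513 FPKM with TNFa against 813 FPKM untreated. Adora2b, a low-affinity adenosine receptor, was 48 FPKM (21.1 to 74.9) with TNFa, against 1.12 FPKM (0.374 to 1.87) untreated. Lower were Clec4a3 (12.2 FPKM with TNFa against 57.5 FPKM untreated), Clec4a1 (29.3 FPKM with TNFa against 71.6 FPKM untreated, with overlapping bounds) and the ATP-gated channel P2rx7 (10.8 FPKM with TNFa against 43.8 FPKM untreated). Toll-like receptors differed among themselves. Tlr2, a surface receptor for lipopeptides, was 454 FPKM (171 to 737) with TNFa, against 71.9 FPKM (30.9 to 113) untreated, and the co-receptor Cd14 was 1635 FPKM with TNFa against 425 FPKM untreated, with overlapping bounds. Tlr9, the endosomal receptor for CpG DNA, was 5.64 FPKM (2.37 to 8.91) with TNFa, against 51.7 FPKM (22.4 to 81) untreated, and the endosomal Tlr7 (22.1 FPKM with TNFa against 66.6 FPKM untreated) and Tlr8 (17.1 FPKM with TNFa against 42.3 FPKM untreated) were lower too. Tlr4, the surface receptor for endotoxin, was also lower (4.67 FPKM with TNFa against 13 FPKM untreated, with overlapping bounds). Of 20 genes on that list 3 were higher, Irak2 being the other (45.3 FPKM with TNFa against 20.2 FPKM untreated, with overlapping bounds), and 4 were lower, with a median of -0.21. With 8.92% higher and 10.4% lower over all 12825 genes, these counts alone do not set the list apart.

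Adhesion and costimulation genes were higher in 13 of 19 members and lower in 2, with bounds apart for 11 and 1 and a median of 1.30. Vcam1, the ligand of the integrin VLA4, was 20.4 FPKM (10 to 30.7) with TNFa, against 0.525 FPKM (0.202 to 0.848) untreated. Icam1 was 329 FPKM (122 to 535) with TNFa, against 55.6 FPKM (23.8 to 87.5) untreated, and Itgal, a subunit of the integrin that binds it, was 156 FPKM (118 to 194) with TNFa, against 16.2 FPKM (12.7 to 19.8) untreated. Cd40, the receptor for T cell help, was 147 FPKM (108 to 185) with TNFa, against 14.9 FPKM (10.2 to 19.7) untreated, while Cd86 was 24.1 FPKM with TNFa against 4.44 FPKM untreated and Cd80 5.23 FPKM with TNFa against 2.59 FPKM untreated. Cd44, the hyaluronan receptor, was 439.8 FPKM with TNFa against 82.8 FPKM untreated. The 2 lower genes were Slamf7 (28 FPKM with TNFa against 90.5 FPKM untreated) and Cd83 (27 FPKM with TNFa against 58.2 FPKM untreated, with overlapping bounds).

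Proteases that cut extracellular matrix and the plasminogen system were higher in 10 of 20 members and lower in 0, with bounds apart for 9 and a median of 1.25. All 20 reached 1 FPKM with TNFa but only 16 untreated, so the count and median are a description. Mmp14, a membrane-bound collagenase, was 173 FPKM (72.4 to 274) with TNFa, against 4.53 FPKM (1.86 to 7.21) untreated, 31.4-fold. Mmp13 was 73.2 FPKM (31.8 to 115) with TNFa, against 1.57 FPKM (0.573 to 2.58) untreated, and Mmp9, a gelatinase, was 15 FPKM (7.67 to 22.3) with TNFa, against 0.746 FPKM (0.248 to 1.24) untreated. The urokinase gene Plau (189.9 FPKM with TNFa against 28.8 FPKM untreated) and its receptor Plaur (199 FPKM with TNFa against 15.4 FPKM untreated) were higher together. So was Timp1, an inhibitor of matrix proteases, at 76.9 FPKM with TNFa against 16.9 FPKM untreated.

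Genes for arginine use and itaconate were higher in 8 of 15 members and lower in 1 (Idh1, 79.5 FPKM with TNFa against 188 FPKM untreated), with bounds apart for all of these and a median of 1.73. All 15 reached 1 FPKM with TNFa but only 11 untreated, so the count and median are a description. Acod1, which makes itaconate, was 998 FPKM (339 to 1656) with TNFa, against 6.41 FPKM (2.71 to 10.1) untreated, 135-fold. Slc7a2, an arginine importer, was 68.1 FPKM (45.5 to 90.8) with TNFa, against 0.768 FPKM (0.455 to 1.08) untreated. Ass1, which rebuilds arginine from citrulline, was 18.9 FPKM with TNFa against 1.5 FPKM untreated, and Odc1, which starts polyamine synthesis, was 28.9 FPKM with TNFa against 3.04 FPKM untreated. Nos2, the inducible nitric oxide synthase, reached only 1.09 FPKM (0.39 to 1.78) with TNFa, against 0.054 FPKM (0.0133 to 0.0947) untreated, just under 2-fold on the FPKM + 1 scale. Arg1, the competing arginase, was 4.53 FPKM with TNFa against 0.0343 FPKM untreated.

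Glycolysis and glucose uptake genes were higher in 15 of 23 members and lower in 0, with bounds apart for 11 and a median of 1.27. Slc2a1, the glucose transporter GLUT1, was 332 FPKM (164 to 501) with TNFa, against 17.3 FPKM (8.32 to 26.2) untreated, 18.3-fold. Slc16a3, the lactate exporter MCT4, was 296 FPKM (199 to 393) with TNFa, against 28 FPKM (18.1 to 38) untreated, and the hexokinase gene Hk2 was 78.3 FPKM (35.2 to 121) with TNFa, against 13.2 FPKM (5.96 to 20.4) untreated. Hif1a, the hypoxia-inducible factor, was 90.8 FPKM (63.2 to 118) with TNFa, against 12.5 FPKM (8.6 to 16.4) untreated, and Egln3, a hydroxylase that marks it for decay, was 12.4 FPKM with TNFa against 0.709 FPKM untreated. Enzymes of the middle of the pathway differed less, with Aldoa at 784 FPKM with TNFa against 484 FPKM untreated and Gpi1 at 186 FPKM with TNFa against 127 FPKM untreated. Slc2a3 (9.12 FPKM with TNFa against 13.6 FPKM untreated) and Hk3 (112 FPKM with TNFa against 142 FPKM untreated) were below untreated by less than 2-fold.

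Antioxidant genes were higher in 4 of 18 members and lower in 1 (Cat, 69.4 FPKM with TNFa against 144 FPKM untreated, with overlapping bounds), with a median of 0.31. Sod2, the mitochondrial superoxide dismutase, was 230.4 FPKM (91 to 369.8) with TNFa, against 18.4 FPKM (8.1 to 28.7) untreated, and the thioredoxin reductase Txnrd1 was 381 FPKM (258 to 504) with TNFa, against 74.1 FPKM (51.8 to 96.5) untreated. Srxn1 was 216 FPKM with TNFa against 54.3 FPKM untreated and Gclc 24.5 FPKM with TNFa against 10.2 FPKM untreated, with overlapping bounds. Cybb, the catalytic subunit of the phagocyte NADPH oxidase, was less than 2-fold apart at 626 FPKM with TNFa against 401 FPKM untreated. Acute-phase and iron genes were higher in 5 of 17 and lower in 1, with a median of 0.34. Saa3, an acute-phase apolipoprotein, was 188 FPKM (82.3 to 293) with TNFa, against 10.2 FPKM (3.6 to 16.7) untreated, the zinc importer Slc39a14 was 83 FPKM with TNFa against 9.61 FPKM untreated and haem oxygenase Hmox1 was 1064 FPKM with TNFa against 288 FPKM untreated. Slc40a1, the iron exporter ferroportin, was the lower gene at 2.34 FPKM (0.898 to 3.78) with TNFa, against 30.6 FPKM (13.4 to 47.8) untreated, 9.46-fold, while the ferritin chains Fth1 (19229.8 FPKM with TNFa against 16474 FPKM untreated) and Ftl1 (3641 FPKM with TNFa against 3518 FPKM untreated) were close to equal. Complement genes, with a median of 0.20, were higher in 3 of 11 and lower in 0, namely Cfb (15.4 FPKM with TNFa against 3.94 FPKM untreated), C3 (111 FPKM with TNFa against 33.2 FPKM untreated, with overlapping bounds) and the receptor C5ar1 (644 FPKM with TNFa against 232 FPKM untreated), and C1qa, C1qb and C1qc were within 2-fold.

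Single genes of cholesterol handling differed in both directions. Abcg1 (ENSMUSG00000024030, mm9 chromosome 17, 31194643 to 31252722), which passes cholesterol to HDL, was 5.39 FPKM (2.26 to 8.51) with TNFa, against 98.9 FPKM (41.3 to 156) untreated, 15.6-fold lower. Abca1, which passes it to apolipoprotein A1, was 53.9 FPKM with TNFa against 41 FPKM untreated. Cyp27a1, a sterol hydroxylase, was lower at 5.62 FPKM (2.22 to 9.03) with TNFa, against 37.8 FPKM (16.6 to 59.1) untreated, whereas Ch25h, which makes 25-hydroxycholesterol, was 31.8-fold higher at 134 FPKM (57.3 to 210.1) with TNFa, against 3.24 FPKM (1.17 to 5.3) untreated. Nr1h3, the gene of the sterol receptor LXRa, was 47.6 FPKM with TNFa against 7.96 FPKM untreated. Of 16 genes on the efflux list 2 were higher and 3 lower, Mylip being the other (11.7 FPKM with TNFa against 29 FPKM untreated, with overlapping bounds), with a median of -0.42. Beside 8.92% higher and 10.4% lower over all 12825 genes, these counts do not set the list apart. Of 17 sterol synthesis genes 6 were higher and 1 lower, with bounds apart for 3 and 1 and a median of 0.78. Hsd17b7, a late enzyme of the pathway, was 25.2 FPKM with TNFa against 3.68 FPKM untreated and Sqle, the squalene epoxidase, 84.6 FPKM with TNFa against 20 FPKM untreated, while Dhcr7, a further late enzyme, was 13.4 FPKM with TNFa against 33.7 FPKM untreated.

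Transcription factors of the early response were higher in 12 of 22 members and lower in 1 (Batf3, 0.466 FPKM with TNFa against 2.39 FPKM untreated, with overlapping bounds), with bounds apart for 10 and a median of 1.53. Id1, which blocks basic helix-loop-helix factors, was 47.5 FPKM (22.1 to 73) with TNFa, against 1.08 FPKM (0.4 to 1.76) untreated. Myc was 82.6 FPKM (62.7 to 103) with TNFa, against 3.41 FPKM (2.48 to 4.34) untreated, 19-fold. Fos was 178 FPKM (107 to 249.6) with TNFa, against 9.99 FPKM (5.93 to 14.1) untreated, and its AP-1 partners differed widely, with Fosl1 at 8.69 FPKM with TNFa against 0.37 FPKM untreated, Junb at 123 FPKM with TNFa against 32.9 FPKM untreated and Jun at 73.9 FPKM with TNFa against 59.5 FPKM untreated. Egr1 was 1.01 FPKM with TNFa against 1.87 FPKM untreated and Atf3 183 FPKM with TNFa against 263 FPKM untreated, both below untreated by less than 2-fold. Among lineage factors Spi1, which encodes PU.1, was 806 FPKM with TNFa against 517 FPKM untreated and Irf8 115 FPKM with TNFa against 164 FPKM untreated. Cebpb was higher at 83.6 FPKM (36.3 to 131) with TNFa, against 19.3 FPKM (8.12 to 30.5) untreated, and Maf, a factor of resident macrophages, was lower at 20.7 FPKM (12.1 to 29.2) with TNFa, against 81.6 FPKM (49 to 114) untreated. Of 25 lineage factors and receptors 4 were higher and 4 lower, beside 8.92% and 10.4% over all 12825 genes, with a median of 0.06. Cxcr4, the receptor for the retention signal CXCL12, had the lowest difference of them, -3.01, at 38.9 FPKM (24.9 to 52.9) with TNFa, against 321 FPKM (209 to 433) untreated, and the monocyte receptor Ccr2 was 14 FPKM with TNFa against 35.5 FPKM untreated.

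Interferon-linked genes were near untreated in most members. Of 31 type I interferon response genes 6 were higher and 1 lower, with bounds apart for 2 and 0 and a median of 0.15. Ifi203 was 80.1 FPKM (61.6 to 98.6) with TNFa, against 21 FPKM (15.4 to 26.7) untreated and Ifi205 112 FPKM (48.7 to 174) with TNFa, against 32.4 FPKM (14.2 to 50.6) untreated, with overlapping bounds. Ifit1 was 85.7 FPKM with TNFa against 32.5 FPKM untreated, with overlapping bounds, and Rsad2 was 70.1 FPKM with TNFa against 28.3 FPKM untreated, with overlapping bounds. The lower gene was Oas3 (30.4 FPKM with TNFa against 69.1 FPKM untreated, with overlapping bounds), and Ifnb1, the interferon gene itself, was under 1 FPKM in both libraries. Of 12 guanylate-binding and immunity-related GTPases the 2 higher ones were Gbp2 (65.9 FPKM (36 to 95.8) with TNFa, against 24.2 FPKM (18 to 30.5) untreated) and Gbp3 (14.4 FPKM (8.48 to 20.4) with TNFa, against 5.2 FPKM (2.81 to 7.59) untreated), related genes whose reads the counting may share, 0 were lower and the median was 0.19. Of 19 antigen presentation genes 2 were higher and 0 lower, namely H2-Ab1 (112 FPKM with TNFa against 43.9 FPKM untreated, with overlapping bounds) and Psme2 (80.3 FPKM with TNFa against 38.3 FPKM untreated), and the median was 0.10. For antigen presentation the share higher is near the 8.92% over all 12825 genes, of which 10.4% were lower. The share higher was larger among the type I interferon genes (6 of 31) and the GTPases (2 of 12).

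Genes of growth arrest and quiescence, many of them targets of FOXO factors, were lower in 11 of 23 members and higher in 4, with bounds apart for 7 and 3 and a median of -0.91. All 23 reached 1 FPKM untreated and 20 with TNFa. Tcp11l2 was 1.53 FPKM (0.564 to 2.5) with TNFa, against 43.3 FPKM (18.9 to 67.6) untreated, and Klhl24 was 0.732 FPKM (0.266 to 1.2) with TNFa, against 15.1 FPKM (6.62 to 23.6) untreated. Sesn1, a brake on mTORC1, was 13 FPKM (5.87 to 20.1) with TNFa, against 99.2 FPKM (42.8 to 156) untreated, and Foxo3 itself was 8.3 FPKM with TNFa against 24.9 FPKM untreated, with overlapping bounds. The cyclin-dependent kinase inhibitors diverged, with Cdkn1b at 7.56 FPKM with TNFa against 20.1 FPKM untreated and Cdkn2c at 5.23 FPKM with TNFa against 18.1 FPKM untreated, against Cdkn1a, which was 305 FPKM (128 to 482) with TNFa, against 86.4 FPKM (44.7 to 128) untreated, with overlapping bounds. Ccnd1, the cyclin of entry into the cycle, was 159 FPKM (71.7 to 246) with TNFa, against 12.4 FPKM (5.57 to 19.2) untreated, 11.9-fold. Genes of DNA replication and mitosis were lower in 5 of 25 members and higher in 0, with bounds apart for 4 and a median of -0.67. Those 5 were Bub1b (2.93 FPKM with TNFa against 13.5 FPKM untreated), Aurkb (2.29 FPKM with TNFa against 10.1 FPKM untreated), Ccnb2 (4.47 FPKM with TNFa against 15.8 FPKM untreated, with overlapping bounds), E2f1 (9.35 FPKM with TNFa against 21.5 FPKM untreated) and Mcm7 (3.26 FPKM with TNFa against 7.61 FPKM untreated). Mki67 was 2.62 FPKM with TNFa against 2.09 FPKM untreated and Pcna 109 FPKM with TNFa against 88.3 FPKM untreated.

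Clock genes were lower in 5 of 13 members and higher in 0, with bounds apart for 4 and a median of -0.82. Dbp, an output factor of the clock, was 0.979 FPKM (0.45 to 1.51) with TNFa, against 25.3 FPKM (16.6 to 34) untreated, 13.3-fold lower. Its relative Tef was 14.1 FPKM (10.3 to 17.9) with TNFa, against 43.8 FPKM (32.4 to 55.1) untreated, and the repressors Nr1d1 and Nr1d2, which encode REV-ERB proteins, were 1.29 FPKM with TNFa against 3.98 FPKM untreated, with overlapping bounds and 1.19 FPKM with TNFa against 6.29 FPKM untreated. Per3 was 0.56 FPKM with TNFa against 2.6 FPKM untreated, whereas Per2 was above untreated by less than 2-fold on the FPKM + 1 scale (1.68 FPKM with TNFa against 0.389 FPKM untreated), and Arntl (3.43 FPKM with TNFa against 4.83 FPKM untreated) and Clock (1.63 FPKM with TNFa against 1.91 FPKM untreated) were close to equal.

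Receptors for the uptake of dying cells and lipids differed in both directions. Of 18 scavenger and uptake genes 4 were higher and 3 lower, beside 8.92% and 10.4% over all 12825 genes, with a median of -0.38. Mertk (ENSMUSG00000014361, mm9 chromosome 2, 128524692 to 128628630), the kinase receptor for phosphatidylserine bridges, was 1.71 FPKM (0.65 to 2.76) with TNFa, against 23.1 FPKM (10.2 to 36.1) untreated, 8.92-fold lower, and its ligand Gas6 was 220.1 FPKM with TNFa against 681 FPKM untreated, with overlapping bounds. Axl, the related receptor, was 145 FPKM with TNFa against 127 FPKM untreated. The scavenger receptors Msr1 (190.3 FPKM (129 to 252) with TNFa, against 17.3 FPKM (11.5 to 23) untreated), Cd36 (102 FPKM (75.7 to 128) with TNFa, against 18.3 FPKM (13.7 to 23) untreated) and Olr1 were higher, and Marco was 1.23 FPKM with TNFa against 0.0649 FPKM untreated. Lysosome genes leaned lower. Of 24 measured 6 were lower and 0 higher, with bounds apart for 2 (Atp6v1a and Tfeb) and a median of -0.60. Atp6v1a, a subunit of the proton pump, was 125 FPKM (92.4 to 157) with TNFa, against 337 FPKM (249 to 426) untreated, and Tfeb, the factor that drives lysosomal genes, was 16.3 FPKM (10.6 to 21.9) with TNFa, against 36.7 FPKM (23.9 to 49.6) untreated. Lipa, the lysosomal lipase, was 294 FPKM with TNFa against 777 FPKM untreated, with overlapping bounds. Ctsb and Ctsd had another status and were not used.

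Among survival genes Bmf and Bbc3 were the lower ones. Of 11 measured BCL2 family and survival genes 1 was higher and 2 lower, with a median of -0.06. These counts do not set the list apart from all 12825 genes, of which 8.92% were higher and 10.4% lower. Bmf, a BH3-only activator of cell death, was 1.8 FPKM (0.918 to 2.69) with TNFa, against 21 FPKM (12 to 30.1) untreated, and Bbc3, encoding PUMA, was 3.62 FPKM (2.19 to 5.04) with TNFa, against 14.1 FPKM (8.53 to 19.7) untreated. The higher gene was Bcl2a1b, a survival gene with near-identical copies that was 239 FPKM with TNFa against 85.2 FPKM untreated, with overlapping bounds. Mcl1 (290.3 FPKM with TNFa against 302 FPKM untreated) and Bcl2l1 (105 FPKM with TNFa against 84.6 FPKM untreated) were close to equal.

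**Figure D2:**
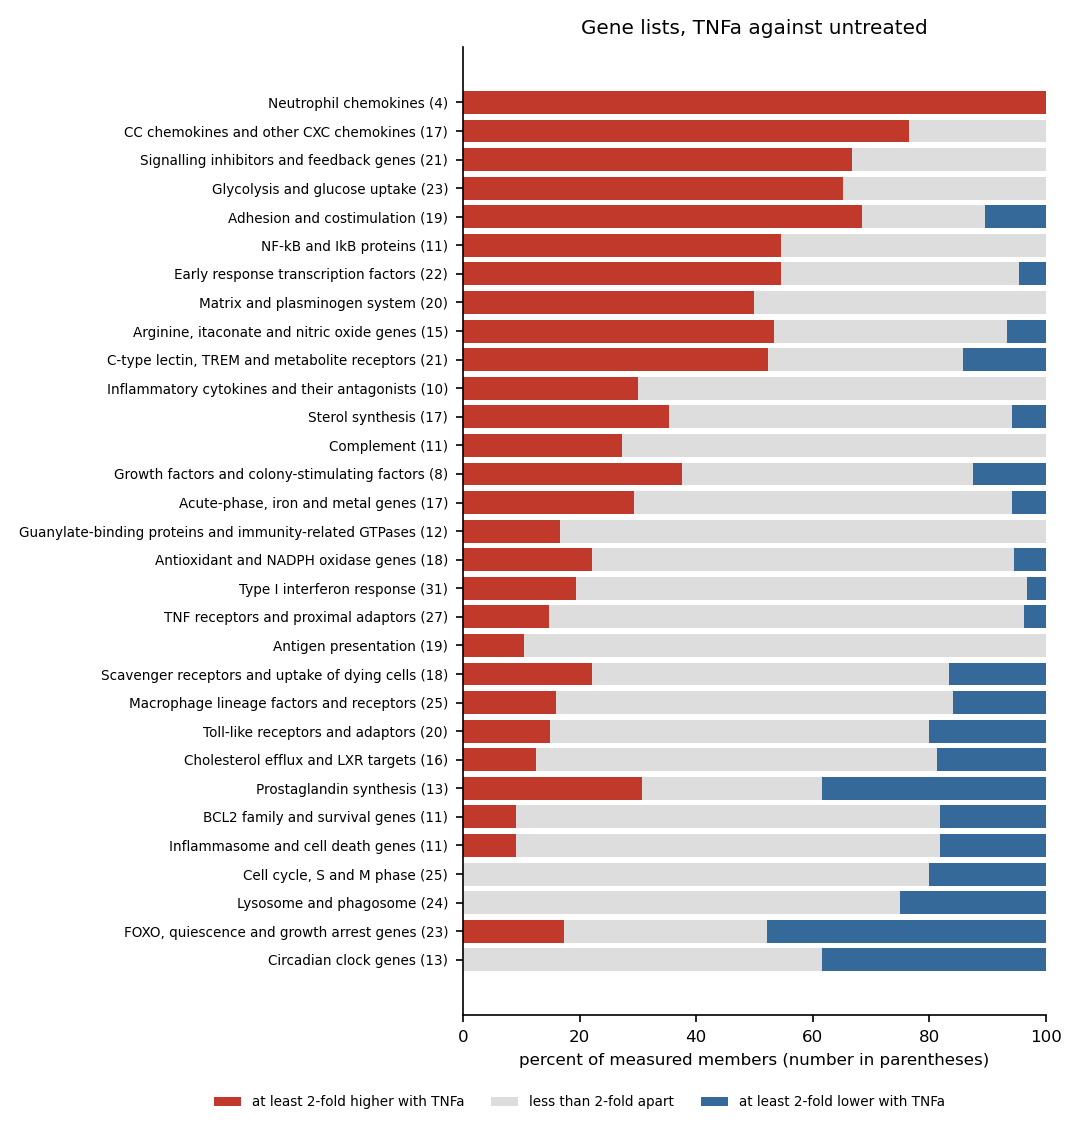
Share of the measured members of 31 gene lists, in percent, that were at least 2-fold higher with TNFa (red), less than 2-fold apart (grey) or at least 2-fold lower (blue), with the number of measured members in parentheses. Over all 12825 genes the shares were 8.92% higher and 10.4% lower. Neutrophil chemokines (4 higher of the 4 that reached 1 FPKM) are at the top and circadian clock genes (5 of 13 lower) at the bottom.

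The 15 protein-coding genes furthest below untreated with bounds apart were Arhgap19, Slc46a3, Slc26a11, Tcp11l2, Rasgrp3, Lrrc14b, Abcg1, Rnf144b, Tmem154, Gyg, Dbp, Hpgd, Sgsh, Mxd4 and Snx29, from 11.5-fold to 23-fold lower. Arhgap19 (ENSMUSG00000025154, mm9 chromosome 19, 41841081 to 41876574), a GTPase-activating protein, was 2.07 FPKM (0.864 to 3.28) with TNFa, against 69.6 FPKM (29.6 to 109) untreated. Gyg, the primer of glycogen synthesis, was 18.9 FPKM (12.6 to 25.2) with TNFa, against 276 FPKM (184 to 368) untreated. Mxd4, which opposes MYC at shared DNA sites, was 4.51 FPKM (2.52 to 6.5) with TNFa, against 66.5 FPKM (32.6 to 100.3) untreated. The sulphate transporter gene Slc26a11 was 1.34 FPKM with TNFa against 45.9 FPKM untreated, the lysosomal transporter gene Slc46a3 1.31 FPKM with TNFa against 48 FPKM untreated and the lysosomal sulphatase gene Sgsh 3.4 FPKM with TNFa against 53.1 FPKM untreated. Rasgrp3, which activates Ras, was 0.919 FPKM (0.51 to 1.33) with TNFa, against 31.2 FPKM (20.5 to 42) untreated. Every stimulus of the study shares the same untreated library, so a difference made by TNFa and a peculiarity of that 1 library cannot be told apart in this comparison. The TNFa level can be set beside the other stimulated libraries without it. Arhgap19 was 2.07 FPKM with TNFa, 5.25 with IL1b, 2.14 with MALP2, 2 with CpG, 1.85 with IFNg, 4.46 with IL4 and 10.5 with TGFb1, and Dbp was 0.979 FPKM with TNFa and 0.78 to 1.65 FPKM in the other 6. Abcg1 was 5.39 FPKM with TNFa, 4.36 to 9.62 FPKM with IL1b, MALP2, CpG and TGFb1, 36.3 FPKM with IFNg and 48.6 FPKM with IL4. Mertk was 1.71 FPKM with TNFa, 1.18 to 4.56 FPKM with MALP2, CpG and IL1b, 9.76 FPKM with IFNg, 17.2 FPKM with IL4 and 19.8 FPKM with TGFb1. Ighm, the B cell gene named above, was 19.8 FPKM with TNFa and 15.1 to 29.7 FPKM in the other 6.

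**Figure D3:**
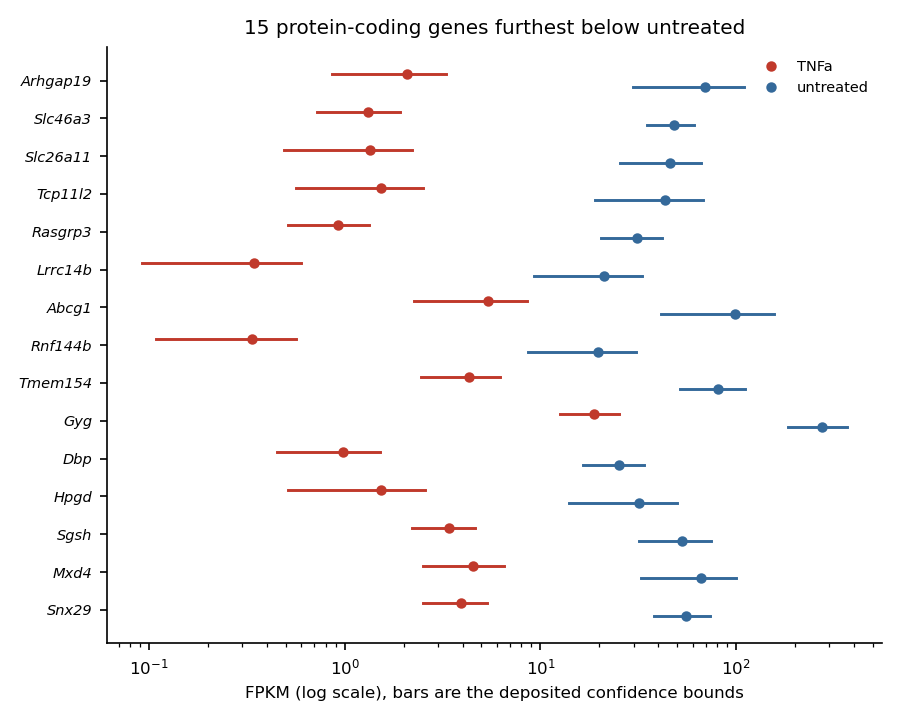
FPKM on a log axis of the 15 protein-coding genes furthest below untreated with bounds apart, in the TNFa library (red, upper point) and the untreated library (blue, lower point). Bars are the deposited confidence bounds, 1 library each. Every pair of bars is separate, and Arhgap19 at the top is 23.0-fold lower with TNFa.

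Set against the median of the other 6 stimulated libraries, more of the higher than of the lower genes lay 2-fold beyond it. Of 12723 genes 195 (1.53%) were at least 2-fold above that median with TNFa and 82 (0.645%) at least 2-fold below it. Among the 673 higher genes with bounds apart and status OK in every library, 86 (12.8%) were at least 2-fold above it, and their median difference was 0.27. Among the 759 such lower genes 12 (1.58%) were at least 2-fold below it, and their median difference was -0.14. The TNFa value enters both this and the choice of the genes, so these shares are a description.

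The libraries nearest to TNFa were IL1b, CpG and MALP2. At least 2-fold apart in either direction were 363 genes from IL1b (2.94%), 492 from CpG (3.99%), 584 from MALP2 (4.73%), 1072 from TGFb1 (8.55%), 1472 from IL4 (11.7%) and 1547 from IFNg (12.3%). The IFNg library was the shallowest by its smallest step, and its part in the last count was not tested.

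Against IL1b, whose receptor also leads to NF-kB, 209 genes were higher with TNFa (1.69%) and 154 lower (1.25%). Ptges was 231 FPKM with TNFa against 27.5 FPKM with IL1b, a log2 difference of 3.02. Ccl22 was 36.5 FPKM with TNFa against 4.08 FPKM with IL1b, and Ccl5, a chemokine for T cells and monocytes, was 128 FPKM with TNFa against 19.9 FPKM with IL1b. The proteases Mmp14 (173 FPKM with TNFa against 34.1 with IL1b) and Mmp9 (15 FPKM with TNFa against 2.38 with IL1b), the complement gene Cfb (15.4 FPKM with TNFa against 1.82 with IL1b) and Gbp2 (65.9 FPKM with TNFa against 19.3 with IL1b) were also higher with TNFa, each with bounds apart. Lower with TNFa were Cxcl1 (7.35 FPKM with TNFa against 30.5 with IL1b), Nfkbiz (7.28 FPKM with TNFa against 21.8 with IL1b), Cd83 (27 FPKM with TNFa against 101 with IL1b) and the replication gene Mcm2 (4.14 FPKM with TNFa against 18.4 with IL1b), again with bounds apart. Cxcl2 (75.8 FPKM with TNFa against 93.9 with IL1b) and Nfkbia (312 FPKM with TNFa against 271 with IL1b) were within 2-fold. Over lists, 5 of 31 type I interferon genes were higher with TNFa than with IL1b and 0 lower (median 0.73), and 6 of 25 replication and mitosis genes were lower and 0 higher (median -0.39). Over all 12355 genes compared the median was -0.012.

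Against the Toll-like receptor ligands, TNFa gave lower levels of many inflammatory genes. With MALP2 as the comparison 250 genes were higher with TNFa (2.02%) and 334 lower (2.71%), and with CpG 140 were higher (1.14%) and 352 lower (2.85%). Il1b was 157 FPKM with TNFa, 3074 with MALP2 and 3135 with CpG. Nos2 was 1.09 FPKM with TNFa, 41.7 with MALP2 and 123 with CpG. Ptgs2 was 5.87 FPKM with TNFa, 93.2 with MALP2 and 169 with CpG. The cyclooxygenase thus differed where its downstream enzyme did not by 2-fold, since Ptges was 231 FPKM with TNFa and 380.4 with MALP2 and had another status with CpG. Saa3 was 188 FPKM with TNFa, 4805 with MALP2 and 5458 with CpG, and Ccl3 was 112 FPKM with TNFa, 2394 with MALP2 and 2575 with CpG. Gpr84 was close in all 3, at 725 FPKM with TNFa, 938 with MALP2 and 740.3 with CpG. Of 11 cytokine genes compared, 8 were lower with TNFa than with MALP2 and 8 lower than with CpG. Feedback genes were lower with TNFa in 10 of 21 against MALP2 (median -0.93) and 14 of 21 against CpG (median -1.40). Higher with TNFa were Plau (189.9 FPKM with TNFa, 29.6 with MALP2, 41.8 with CpG), Cxcr4 (38.9 FPKM with TNFa, 4.23 with MALP2, 11.5 with CpG) and Vcam1 (20.4 FPKM with TNFa, 3.58 with MALP2, 7.45 with CpG, with bounds overlapping against CpG).

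Few genes set TNFa apart from every other stimulus. Of 13223 genes at 1 FPKM or more in a stimulated library, 30 (0.227%) were at least 2-fold higher with TNFa than in each of the other 6, and 24 of these were listed at 0 in all 6. Short RNA genes made 16 of the 30, and the 12 furthest apart were all listed at 0 in the other 6, so no fold is given. Of 10550 protein-coding genes 3 (0.0284%) were higher than in each of the 6, Ppp1r12b, Treml4 and H2-M2, named here after their values were seen. Ppp1r12b (ENSMUSG00000073557, mm9 chromosome 1, 136651235 to 136852519), a regulatory subunit of myosin phosphatase, was 25.9 FPKM with TNFa, 2.67 to 9.18 FPKM in the other 6 and 1.79 FPKM untreated. Treml4, a TREM-like receptor of myeloid cells, was 10.2 FPKM with TNFa, 0.216 to 4.29 FPKM in the other 6 and 0.383 FPKM untreated. Both had bounds above those of all 6. H2-M2, a class I-like gene of the H2 family whose members share sequence, was 5.62 FPKM with TNFa, 0.127 to 2.13 FPKM in the other 6 and 0.369 FPKM untreated. Closest behind came Rab11fip4, a partner of Rab11 GTPases (12.4 FPKM with TNFa, at most 5.88 in the others), and the lipid phosphatase gene Mtm1 (6.32 FPKM with TNFa, at most 3.02 in the others). Further examples that fell short of 2-fold over each were Vcam1 (20.4 FPKM with TNFa, at most 11.2 in the others), Fos (178 FPKM with TNFa, at most 101 in the others), the Notch ligand Jag1 (61.3 FPKM with TNFa, at most 36.1 in the others) and Jdp2, a repressor of AP-1 (138 FPKM with TNFa, at most 83.2 in the others). For Vcam1 the 11.2 FPKM lies inside the bounds given above for TNFa. Lower with TNFa than in each of the 6 were 3 of the 13223 genes (0.0227%) and 0 of the protein-coding ones (0%). The protein-coding genes nearest to it were the phosphatase Ppm1h (15.4 FPKM with TNFa, 25.6 to 35.2 in the others, 64.5 untreated) and the small GTPase Rab31 (67.2 FPKM with TNFa, 102 to 187 in the others, 144 untreated). Levels set across stimuli come from tables that the authors scaled separately and that were joined here through their untreated values.

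**Figure D4:**
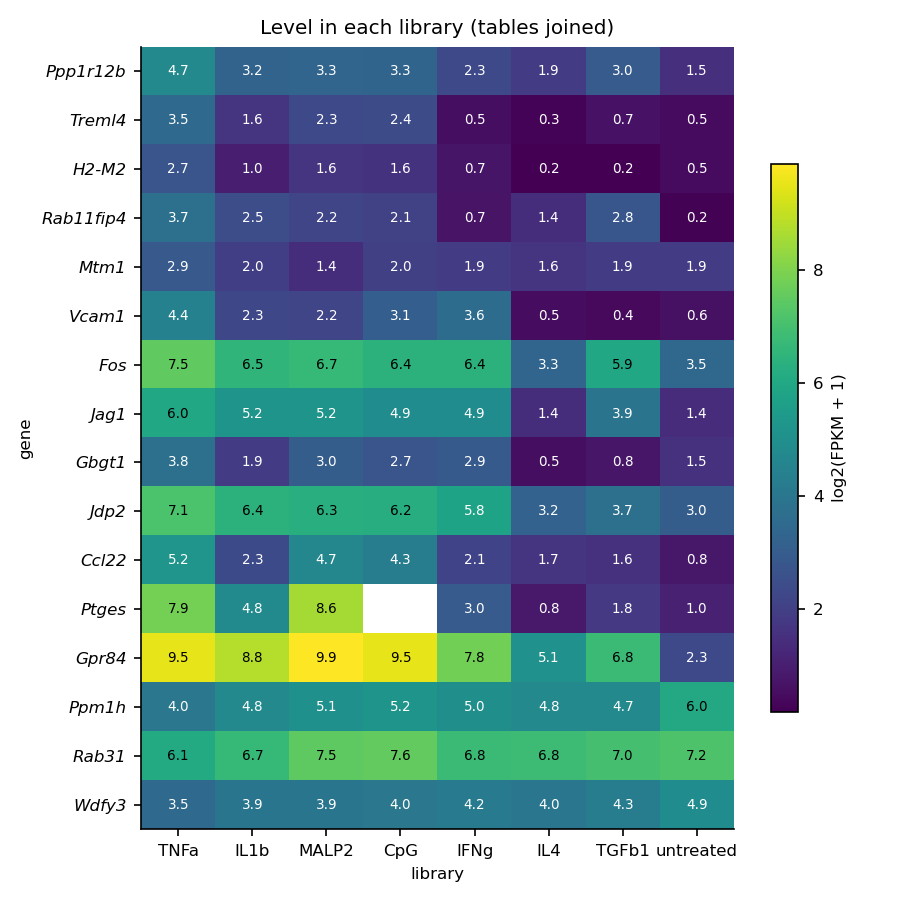
Level, as log2(FPKM + 1), of 16 genes (rows) in the TNFa library, the other 6 stimulated libraries and the untreated library (columns, 1 library each), after joining the tables. Colour and the printed value give the level, and the white cell is a value with another status. Ppp1r12b, Treml4 and H2-M2 are highest with TNFa, and Ppm1h, Rab31 and Wdfy3 are lowest with TNFa.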

How the data were processed

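Poly(A) RNA-seq of macrophages was processed by the authors on mm9 with TopHat 1.3.1, Cufflinks 1.2.1 and Cuffdiff 1.2.1, named without their roles in the submitters' processing notes. Strandedness, options, annotation and read totals were not found in the labels and headers (not given in the sources used here). Reads of overlapping or antisense genes may therefore be mixed, and near-identical genes may share reads. The deposited FPKM tables, per the file headers, give a value and 2 confidence bounds for each stimulated library and for the untreated one. A further table holds the authors' comparison with its q-value and call, per the file headers, and the highest q-value among its 2570 called genes was 0.05. FPKM divides by a library total, so a few abundant transcripts lower all others. The highest share of 1 gene in the summed FPKM was 5.03% with TNFa and 10.3% untreated. Its part in the counts of higher and lower genes was not tested.

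Left out were 344 genes whose status was not OK on both sides and genes under 1 FPKM in both libraries, which left 12825. The pseudocount was 1 FPKM. With 1 library a group no test was run. The 7 tables were joined by the ratio of their untreated values, with factors of 0.961 to 1.06. Coordinates of genes are mm9, with the start moved by 1 because the deposited start counts from 0. Symbols came from GENCODE M21 for 31840 of 36806 identifiers. Promoters came from RefSeq on GRCm38.p6 and were not combined with mm9 coordinates.

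Named are Gpr84, Ptges and Ccl22, all members of the receptor, NF-kB and neutrophil chemokine lists, up to 4 members of each other list in each direction, some further members chosen after their values were seen, the 15 highest and 15 lowest protein-coding genes with bounds apart, and the genes most apart from the other 6 libraries. These members, the 31 lists and 8 marker lists were chosen with earlier results of these data known. Alternatives were centring on the median gene, restriction to protein-coding genes or to the authors' calls, leaving out IFNg, a smaller pseudocount (0.1) and another floor (5 FPKM, or none). The counting rule was run on simulated data with noise set well under the width of the bounds and planted changes larger than 2-fold. That run therefore does not give the rate of wrong calls at the 2-fold cut. Python 3.11.15, numpy 2.4.6, pandas 2.3.3 and matplotlib 3.10.9 were used.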

Additional observations from a re-analysis of the deposited data

How the results depend on the processing

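Each group holds 1 library, so the spread between replicates is unknown, and the bounds cover 1 library alone. No paired analysis was possible because each group has 1 library. Of 32 recounts over all genes under the alternatives, 28 stayed within 1.5 times the count as reported. The exceptions concern genes apart from each of the other 6 stimulated libraries. The number at least 2-fold lower with TNFa was 3, and it was 7 with a pseudocount of 0.1, 6 without the IFNg library and 0 among protein-coding genes. The number at least 2-fold higher was 30, and it was 3 among protein-coding genes. Of 248 recounts of list members 237 stayed within 1.5 times, of 124 list medians 114 moved by less than 0.5, and of 1236 values of single genes 1180 stayed within the range their bounds allow. Replication and mitosis genes had 9 lower members in place of 5 with a pseudocount of 0.1, and clock genes had 3 in place of 5 with a floor of 5 FPKM and 1 higher member in place of 0 when centred. Inflammatory cytokines had 5 higher members in place of 3 with a pseudocount of 0.1. No value changed sign among those at least 2-fold apart. The cause of these shifts was not tested. Read totals are not in the tables, and the median width of the bounds to each side was 53.0% of the value with TNFa and 52.4% untreated.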
